A study of Mus musculus with 3 samples.

Results

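Plasmacytoid dendritic cells were sought in lineage-negative mouse bone marrow profiled by single-cell RNA sequencing, with 1 library for each of 3 genotypes. The members are barcodes with at least 5 UMIs (unique molecular identifiers, counts of distinct mRNA tags) of Siglech. They also had to hold at least 3 UMIs of Bst2, Tcf4 and Irf8 together, at most 1 of the B-lineage genes Cd79a and Ebf1, and 0 of Cd3e, Cd3d and Cd3g. Only barcodes with at least 1000 UMIs, at least 500 genes and at most 10% mitochondrial UMIs were considered. The rule found 164 cells among 19762 barcodes within those limits. They are called Siglech-gated cells here, because several genes of the mature cell type were low or had no UMI in them.

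The control library came from Rit1M90I/+Mx1Cre- mice, which carry the Rit1-M90I allele without the recombinase. The Lztr1 knockout library came from Lztr1fl/fl;Mx1Cre+ mice, and the Rit1-M90I library from Rit1M90I/+;Mx1Cre+ mice. All mice were treated from 8 weeks of age with 3 doses of pIpC at 12 mg/kg, and marrow was taken 4 weeks after injection. pIpC is a synthetic double-stranded RNA that induces interferon, and Mx1-Cre is driven by an interferon-responsive promoter that acts in blood cells and in other tissues, so neither allele is specific to dendritic cells. The control differs from both mutants in lacking Cre as well, and the labels do not say how many mice each library holds. Sorted cells were live and bound no antibody to CD3, CD11b, Gr1, B220 or Ter119. Lztr1 is a substrate adaptor of an E3 ubiquitin ligase that acts on RAS-family proteins, and Rit1 is one of those proteins. Sets of 3 values below run from the control through the Lztr1 knockout to Rit1-M90I. Without replicate libraries no difference between genotypes could be tested. The 95% intervals below cover counting error within a library only, not the spread between mice.

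Plasmacytoid dendritic cells sense viral and self nucleic acids through the endosomal receptors TLR7 and TLR9 and are known for secreting large amounts of type I interferon. They develop in bone marrow from progenitors that carry the receptor Flt3, along lymphoid and myeloid routes, and the E protein TCF4 is needed to form and keep them. Siglec-H and BST2 are surface proteins used to recognise them in mice, and the chemokine receptor CCR9 marks their mature form. In mice they also carry B220, one of the antigens depleted in the sort, so both the number and the stage of the cells that remained can be set by the sort. That influence was not tested.

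E proteins such as TCF4 bind E-boxes, the letters CANNTG. The promoters of the 3 surface marker genes are shown because they code for the proteins by which the cell type is recognised and because these genes had very different levels in the cells. The windows run from 250 bases before to 50 bases after the RefSeq start site (build GRCm38.p6), 5′ to 3′ on the gene's strand, with each CANNTG in capitals. The Siglech window lies at chr7:55767934-55768233 on the plus strand, the Bst2 window at chr8:71537423-71537722 on the minus strand and the Ccr9 window at chr9:123766961-123767260 on the plus strand.
Siglech: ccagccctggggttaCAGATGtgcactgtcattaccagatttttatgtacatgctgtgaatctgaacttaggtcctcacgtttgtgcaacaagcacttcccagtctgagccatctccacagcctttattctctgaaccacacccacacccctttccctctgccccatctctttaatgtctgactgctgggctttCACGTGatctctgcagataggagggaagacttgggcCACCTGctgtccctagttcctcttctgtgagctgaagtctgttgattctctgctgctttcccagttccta
Bst2: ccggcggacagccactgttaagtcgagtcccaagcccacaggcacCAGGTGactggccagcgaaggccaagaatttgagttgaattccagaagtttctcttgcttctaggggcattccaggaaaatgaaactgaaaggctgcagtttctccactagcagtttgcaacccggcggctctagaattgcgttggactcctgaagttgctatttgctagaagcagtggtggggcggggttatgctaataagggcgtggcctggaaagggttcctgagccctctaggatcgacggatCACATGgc
Ccr9: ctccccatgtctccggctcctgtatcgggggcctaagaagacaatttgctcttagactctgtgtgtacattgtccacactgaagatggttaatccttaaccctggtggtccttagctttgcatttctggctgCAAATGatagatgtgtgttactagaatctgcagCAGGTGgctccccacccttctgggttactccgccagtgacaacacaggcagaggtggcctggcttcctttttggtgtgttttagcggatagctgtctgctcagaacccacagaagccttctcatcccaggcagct
The Siglech window held 3 matches, beginning 235, 56 and 20 bases before the start site. The Bst2 window held 2, beginning 205 bases before and 42 bases after it, and the Ccr9 window held 2, beginning 118 and 85 bases before it. CANNTG reads as the same pattern on both strands, and it overlaps every match of the narrower letters CAGNTG or CANCTG. Such matches are common, since 72.3% of 32619 RefSeq promoter windows of the same length held at least 1 CANNTG and 17.6% held 3 or more. The windows of Siglech and Ccr9 are therefore alike in holding these letters, although the 2 genes were at very different levels in the cells. Of the 12 genes that led the Siglech-gated cells over other barcodes, 7 had a window in the table, and all 7 held a CANNTG in at least 1 window. Those genes had 8 windows, and that of the first Irf8 start site held none. The 72.3% is a share of windows, so it cannot be set against a count of genes. A match describes letters only and is no evidence of binding.

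The control library held 44 Siglech-gated cells among 7523 kept barcodes, a share of 0.585% (Clopper-Pearson 95% interval 0.425 to 0.784). The Lztr1 knockout library held 30 among 2422, or 1.24% (0.837 to 1.76). The Rit1-M90I library held 90 among 9817, or 0.917% (0.738 to 1.13). The share was lowest in the control, and its interval did not overlap that of the Lztr1 knockout. The ratio to the control was 2.12 (1.33 to 3.36) for the Lztr1 knockout and 1.57 (1.09 to 2.25) for Rit1-M90I. A limit on a count depends on depth, and kept barcodes had median UMI counts of 7021, 10140.5 and 6885. When barcodes were thinned to 3000 UMIs and gated at 3 Siglech UMIs, the shares were 0.885%, 1.22% and 1.21%. This gate asked for 2 UMIs of Bst2, Tcf4 and Irf8 together and 0 of Cd79a and Ebf1. It left out barcodes under 3000 UMIs, so the shares are of 5986, 2126 and 7416 barcodes. The ratios were then 1.38 (0.866 to 2.20) and 1.37 (0.978 to 1.92), and neither interval excluded equal shares. More than depth differed from the rule, so the shift cannot be credited to depth alone. The share depends steeply on the threshold. Barcodes with exactly 4 Siglech UMIs, just outside the rule, numbered 27, 13 and 39, and members with exactly 5 numbered 13, 6 and 31. In tissue counted by RNA, fewer cells of a type and less RNA per cell cannot be told apart at such a threshold.

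**Figure D1:**
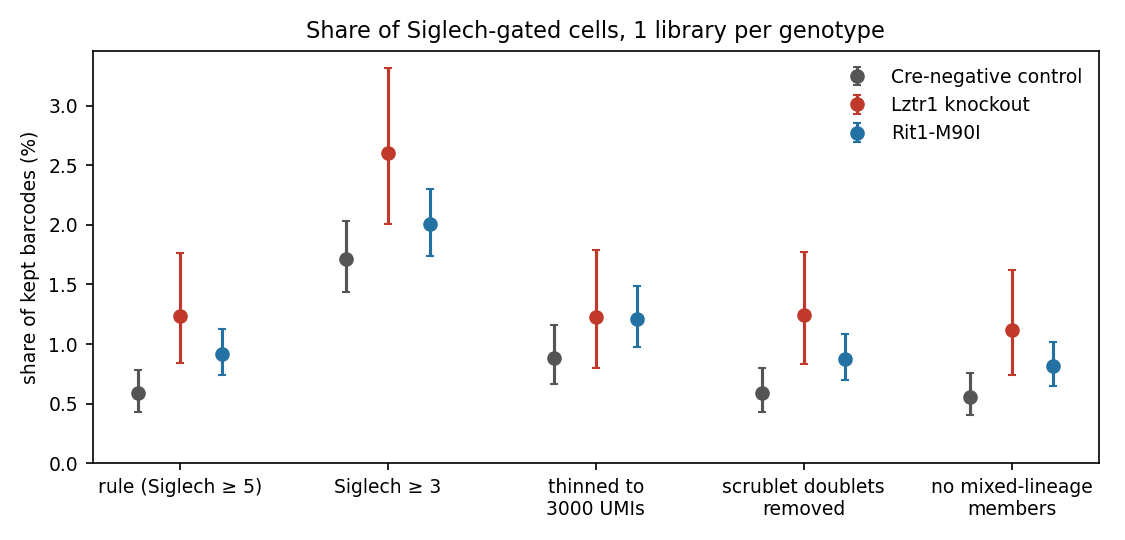
Share of kept barcodes (%, y axis from 0) that met the rule or a changed rule (x axis) in each library; points are shares and bars are Clopper-Pearson 95% intervals, for counting error only. The control was lowest in all 5 settings, while the thinned shares of the mutants, 1.22% and 1.21%, were close to each other.

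The Siglech-gated cells were not deep barcodes. Their median UMI counts were 5389, 6341 and 5133, below the median of all kept barcodes in each library. Siglech itself ranged from 5 to 15 UMIs per member. Between 5 and 19 barcode sequences were shared by each pair of libraries, and 2 of these belonged to a member in either library. Summed over members, the libraries held 269393, 257276 and 584474 UMIs. A gene at 100 CPM (each sum scaled to 1e6) then rested on 27 UMIs in the control, and an observed ratio of about 1 at that level had an interval of 0.565 to 1.80 for the Lztr1 knockout.

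Some members also held many UMIs of another lineage, which touches every between-genotype result below. In the control 2 members held 88 and 161 UMIs of erythroid markers. In the Lztr1 knockout 3 members held 37, 312 and 536 UMIs of neutrophil progenitor markers. In Rit1-M90I 10 members held at least 10 UMIs of 1 of these lists or of basophil and mast cell or megakaryocyte markers, led by basophil and mast cell markers in 5 of them (31 to 312 UMIs), and otherwise by neutrophil, erythroid or megakaryocyte markers. These mixed-lineage members had median depths of 19280.5, 29108 and 15036.5 UMIs, against 5337, 6212 and 4877.5 in the other members. The doublet caller scrublet marked 1, 1 and 8 members. Monocyte and macrophage markers were not among the lists used to mark mixed-lineage members. Their sums in members were 464, 669 and 655 CPM, against 492, 502 and 662 CPM in other kept barcodes, and 1, 2 and 7 members held 10 or more UMIs of them. The rule keeps such barcodes, so values are given with and without the 15 mixed-lineage members. Summed markers of B, T and natural killer cells stayed between 37.1 and 85.5 CPM in all libraries. The B and T lists include Cd79a, Ebf1 and the Cd3 genes, so those sums were low in part by the rule. Other kept barcodes held 109, 76.2 and 104 CPM of the B list and 181, 73.2 and 119 of the T list. For natural killer markers they held 353, 241 and 346 CPM. Plasma cell markers were at 226, 233 and 294 CPM, where other kept barcodes held 3555, 2807 and 4288 CPM.

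**Figure D2:**
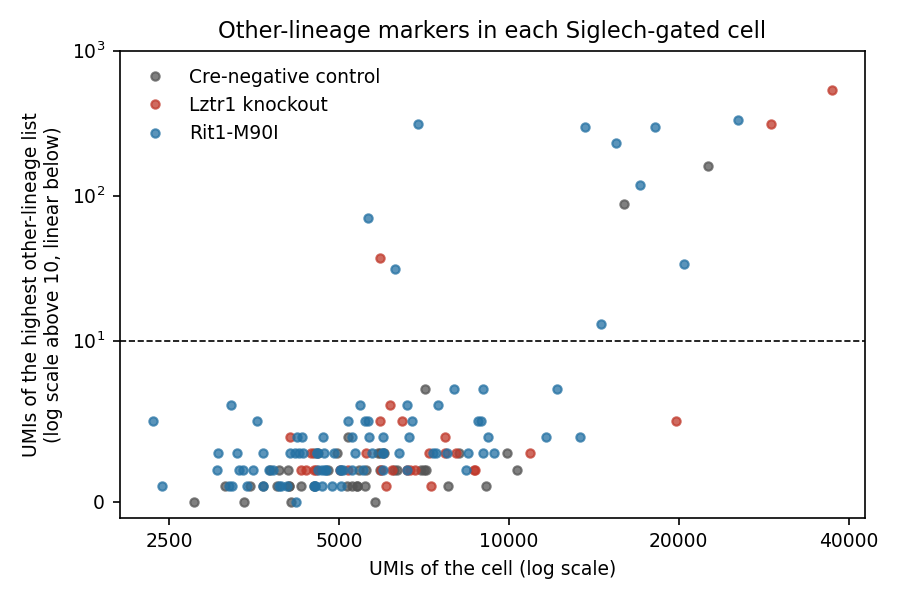
UMIs of the highest of 4 other-lineage marker lists (neutrophil, basophil and mast cell, erythroid, megakaryocyte; y axis, log scale above 10) against total UMIs (x axis, log scale) for each of the 164 Siglech-gated cells. The dashed line marks 10 UMIs; 2 control, 3 Lztr1 knockout and 10 Rit1-M90I cells lie above it.

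The marker check of the label gave a split result. Genes of the rule are given as a description only. Siglech stood at 1136, 847 and 1044 CPM, where other kept barcodes held 9.19 to 10.9. Bst2, a membrane protein that tethers budding virus, stood at 1232, 910 and 1302 CPM. Tcf4 stood at 1210, 902 and 1131 CPM, and Irf8, a factor shared by dendritic cells and monocytes, at 2788, 2402 and 2613. All 4 genes were lowest in the Lztr1 knockout. The rule sets minimum UMI counts for these genes, which ties their CPM to depth. Members of that library were the deepest, with a median of 6341 UMIs against 5389 in the control and 5133 in Rit1-M90I. The influence of depth on this order was not tested. Without the mixed-lineage members Siglech was 1278, 1065 and 1239 CPM and Tcf4 1334, 1125 and 1345, so the gap narrowed.

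Several markers that the rule did not name stood high as well. Ly6d, a small surface antigen of lymphoid progenitors and plasmacytoid dendritic cells, was at 2123, 2429 and 2264 CPM, against 46.7 to 55.9 in other kept barcodes. Cox6a2, a cytochrome c oxidase subunit that is a known marker of the cell type, was at 1088, 785 and 943 CPM against 28.8 to 38.5. Runx2, a transcription factor that acts in their exit from bone marrow, was at 683, 474 and 606 CPM against 63.3 to 72.7. Each stood far above the other barcodes in every library. Of 1561 genes with a mean of at least 100 CPM over members, 121 (7.75%) were at least 2-fold above the other barcodes in all 3 libraries and 7 (0.448%) at least 2-fold below. The leading 12 by their lowest library were Siglech, Ly6d, Cox6a2, the long non-coding RNA Gm34680, Mpeg1, Tcf4, Irf8, Jaml, Blnk, Runx2, Kctd12 and Cd7. Since the rule chose these cells, the contrast is a description without a test.

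The mature markers were low. Ccr9 was at 33.4, 35.0 and 61.6 CPM, with a UMI in 3 of 44, 4 of 30 and 19 of 90 members. After thinning to 2000 UMIs, 4.55% (0.555 to 15.5), 6.67% (0.818 to 22.1) and 12.2% (6.26 to 20.8) of members had a Ccr9 UMI. In Siglech-negative cells gated on Dntt the thinned shares were 1.94%, 2.96% and 3.94%, at median depths of 8119, 10082 and 7422.5 UMIs, and the intervals overlapped those of the members in the control and the Lztr1 knockout. The kallikrein gene Klk1 had 0, 0 and 1 UMIs. Irf7, the factor that amplifies interferon production, was at 40.8, 15.5 and 25.7 CPM, below the 100 CPM needed for a comparison. Spib, an ETS factor of plasmacytoid dendritic cells, was at 44.5, 81.6 and 103 CPM against 2.40 to 5.08 in other barcodes, and Pacsin1 at 44.5, 42.8 and 82.1 against 1.65 to 1.83. Low Spib and Pacsin1 were thus still well above the rest of the marrow, whereas Irf7, at 6.88 to 10.3 CPM in other barcodes, was less so.

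**Figure D3:**
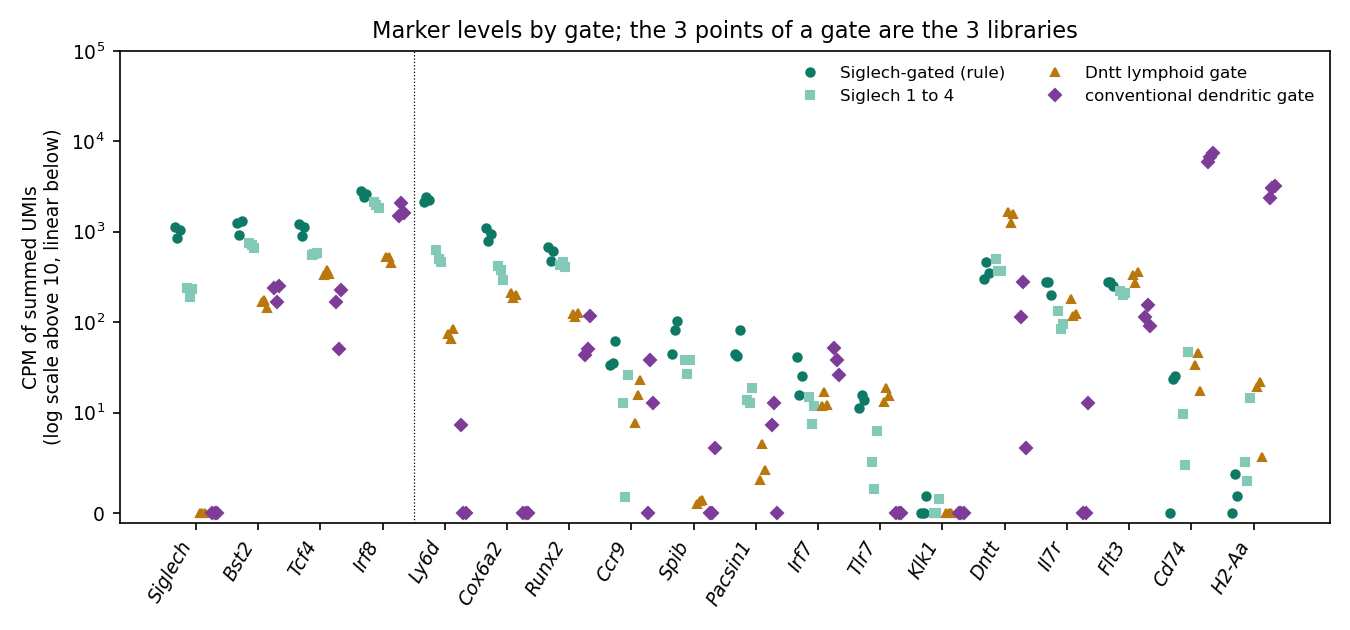
CPM of summed UMIs (y axis, log scale above 10 and linear below) for 18 marker genes (x axis) in Siglech-gated cells and 3 comparison gates; the 3 points of each gate are the 3 libraries, and genes left of the dotted line were used by the rule. Ly6d, Cox6a2 and Runx2 are highest in Siglech-gated cells, and Ccr9 and Irf7 are low in all gates. Cd74 and H2-Aa are high only in the conventional dendritic gate, which was chosen by H2-Aa.

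The transcription factor list of the plasmacytoid program held 17 genes, of which 11 reached 100 CPM. Of these 5 were at least 2-fold above the other barcodes in all libraries and 0 below. Over all 1561 genes the share was 7.75%. The 5 were Runx2, Bcl11a and Mef2c, and Tcf4 and Irf8, which the rule itself selected on. Bcl11a, a zinc finger factor upstream of the program, was at 561, 451 and 592 CPM, Mef2c at 564, 704 and 616, and the TCF4 cofactor gene Cbfa2t3 at 290, 241 and 286. Values of the 3 libraries lay close together for each of these genes. Among 28 receptors and other markers, 14 reached 100 CPM and 13 of them were at least 2-fold above the other barcodes (7.75% over all genes), Siglech and Bst2 of the rule included. These included Cd7 at 271, 202 and 346 CPM and the ribonuclease gene Rnase6 at 290, 171 and 293. Ly6c2 was the remaining gene, at 219, 330 and 346 CPM, and stood below the other barcodes of the control and Rit1-M90I libraries.

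The nucleic acid sensing machinery was present in part. Tlr7 had 3, 4 and 8 UMIs (11.1, 15.5 and 13.7 CPM). Thinned shares of members with a Tlr7 UMI were 4.55%, 3.33% and 3.33%, no higher than the 2.78%, 5.19% and 3.48% of the Dntt gate beyond counting error. Tlr9 had no UMI in any member, which allows up to 11.1, 11.7 and 5.13 CPM (3 counts of each library's member total). By contrast Unc93b1, the chaperone that carries these receptors to endosomes, was at 390, 295 and 327 CPM against 92.6, 103 and 117 in other barcodes. Pld4, an endosomal exonuclease, was at 178, 155 and 193 CPM against 26.6 to 36.0, and the adaptor Tyrobp, which pairs with Siglec-H, at 1240, 1057 and 1482. Of 7 genes of the list that reached 100 CPM, 4 were at least 2-fold above other barcodes in all libraries (7.75% over all genes). No member held a UMI of any of the 19 type I and type III interferon genes.

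The class II genes H2-Aa and Cd74 had few UMIs in these cells. The conventional dendritic gate was chosen by H2-Aa and by having no Siglech UMI, so its contrast with them is set in part by that choice. The class II chain H2-Aa had 0, 1 and 1 UMIs and the invariant chain Cd74 had 0, 6 and 15 UMIs, or 0, 23.3 and 25.7 CPM. In the conventional dendritic gate, 17, 12 and 25 cells chosen by H2-Aa, Cd74 was at 5919, 6726 and 7403 CPM. The Siglech-gated cells had H2-DMa, a peptide-loading subunit, at 282, 210 and 263 CPM. Zbtb46 had 0, 0 and 2 UMIs and Xcr1 none, both defining genes of conventional dendritic cells.

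Genes of early lymphoid cells were carried beside the plasmacytoid markers. Dntt, which encodes terminal deoxynucleotidyl transferase, was at 297, 466 and 351 CPM, against 112 to 134 in other barcodes, and the cytokine receptor gene Il7r was at 275, 276 and 198 against 27.9 to 34.7. Flt3 was at 278, 276 and 250 CPM and the immunoglobulin heavy chain gene Ighm at 965, 983 and 950. The levels of Flt3 and Ighm varied little between libraries, while Dntt was highest in the Lztr1 knockout and Il7r lowest in Rit1-M90I. Of 8 genes of the list that reached 100 CPM, 6 were at least 2-fold above other barcodes in all 3 libraries (7.75% over all genes). Ly6d is in this list too, so it counts both here and among the plasmacytoid markers. Later B-lineage genes were nearly absent, in part by the rule: Pax5, Vpreb3 and Ms4a1 had no UMI, and Rag1 had 0, 1 and 1. Jchain was at 33.4, 27.2 and 47.9 CPM, far below the 972 to 1380 CPM of other barcodes.

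Of 6 migration and adhesion genes that reached 100 CPM, 3 were at least 2-fold above other barcodes in all libraries, and so were 2 of 6 conventional and transitional dendritic cell genes and 2 of 4 survival and cytokine receptor genes, where the share over all genes was 7.75%. Cst3, the cystatin C gene that dendritic cells share, was at 883, 1135 and 1095 CPM. The kappa light chain gene Igkc was at 163, 128 and 282 CPM, far below the 8656, 6462 and 10586 CPM of other barcodes, so plasma cell transcripts were not concentrated in these cells.

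Cells with 1 to 4 Siglech UMIs that met the other limits, 364, 128 and 435 in number, lay between the members and the Dntt gate in Ly6d and Cox6a2. Ly6d was at 632, 493 and 463 CPM there, against 2123, 2429 and 2264 in members and 73.7, 65.7 and 83.7 in the Dntt gate. Cox6a2 was at 417, 380 and 290 CPM and Runx2 at 433, 463 and 406. Dntt was at 494, 367 and 369 CPM, above the members' level in the control and below it in the Lztr1 knockout. The order of Ly6d and Cox6a2 across the 3 gates was the same in every library. The gates were themselves set by Siglech UMIs, so the order of genes that go with Siglech was fixed in part by that choice.

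Members differed among themselves in Ccr9. Thinned to 2000 UMIs, the Rit1-M90I library had 11 members with a Ccr9 UMI and 79 without. Ly6d was at 4087 CPM (3585 to 4641) in the former and 2062 (1941 to 2188) in the latter. Cox6a2 was at 1889 CPM (1553 to 2277) against 838 (762 to 920), while Dntt was at 155 (70.7 to 293) against 372 (322 to 428). Plasmacytoid markers did not all rise with Ccr9. Spib was at 103 CPM in both parts, and Cd300c was at 34.3 (4.16 to 124) with Ccr9 against 103 (77.1 to 134). The proliferation gene Mki67 was at 172 CPM (82.4 to 316) with Ccr9 and 494 (436 to 558) without. The control and the Lztr1 knockout each had 2 members with a Ccr9 UMI. Ly6d was higher in those as well, at 5355 against 2034 CPM and 6004 against 2252. Dntt was at 1510 against 263 in the control, opposite to Rit1-M90I. In the Lztr1 knockout Dntt was at 576 against 461, with overlapping intervals. The cells of a library are not replicates, so this split has no test.

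Proliferation genes were detected in the cells as well. Mki67 was at 542, 295 and 462 CPM against 277 to 382 in other barcodes, and cyclin D1 (Ccnd1) at 238, 257 and 253 against 27.0 to 49.9. The summed level of 9 S-phase genes was 2172, 3071 and 2082 CPM, where other kept barcodes held 1461, 1684 and 1451. For 10 genes of G2 and mitosis the sums were 3085, 1485 and 2279 CPM, where other kept barcodes held 1660, 1962 and 1638. For G2 and mitosis only the Lztr1 knockout members lay below the other barcodes of their library. The Lztr1 knockout therefore had the highest S-phase and the lowest G2 and mitosis sum, with ratios to the control of 1.41 (1.27 to 1.58) and 0.481 (0.425 to 0.544). For Rit1-M90I the ratios were 0.959 (0.868 to 1.06) and 0.739 (0.677 to 0.807). The split into phases was made after the values of single cycling genes were seen. The cells shared these sums unevenly: 16 of 44, 12 of 30 and 29 of 90 members held 10 or more UMIs of the G2 and mitosis genes, and 1 control cell held 16.2% of that library's. For the S-phase genes 1 Lztr1 knockout cell held 13.3% of that library's UMIs. Among cells with 1 to 4 Siglech UMIs the G2 and mitosis sum of the Lztr1 knockout, 2640 CPM, was above that of the control, 2337, so the order of those libraries was the reverse there.

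**Figure D4:**
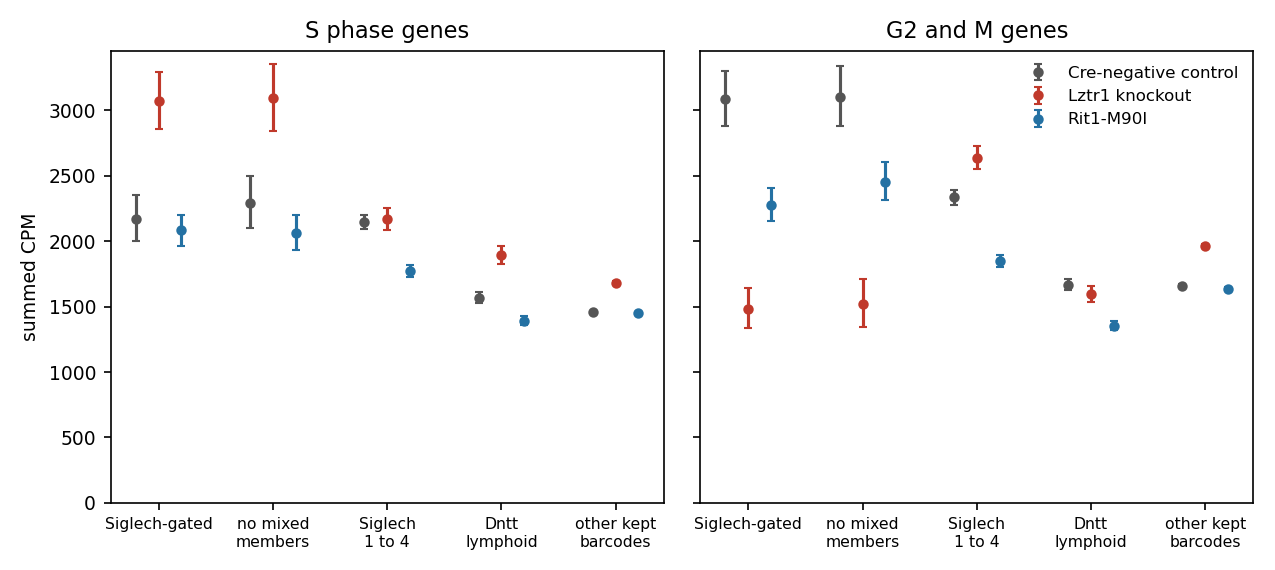
Summed CPM (y axis, from 0) of 9 S-phase genes (left) and 10 genes of G2 and mitosis (right) by gate (x axis) and library; bars are exact Poisson 95% intervals, for counting error within a library. In Siglech-gated cells the Lztr1 knockout has the highest S-phase sum (3071) and the lowest G2 and mitosis sum (1485), and in cells with 1 to 4 Siglech UMIs its G2 and mitosis sum (2640) is the highest.

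In the Lztr1 knockout 44 of the 1561 genes (2.82%) were at least 1.5-fold above the control and 85 (5.45%) at least 1.5-fold below, on the scale log2(CPM + 10). In Rit1-M90I 27 (1.73%) were above and 47 (3.01%) below. Both comparisons use the same control cells. The medians over all 1561 genes were -0.02 and -0.06. These numbers carry little weight on their own. When the Siglech limit was lowered to 3 UMIs, which gave 129, 63 and 197 cells, the counts above and below were 14 and 18 for the Lztr1 knockout and 6 and 8 for Rit1-M90I. Of the calls in the main comparison, 11 of 44, 13 of 85, 5 of 27 and 2 of 47 were also made there. Scaling by the median of ratios moved the Rit1-M90I split from 27 above and 47 below to 41 and 32.

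Marker genes of other lineages held the highest ratios. Elane, Mpo, Prtn3 and Ctsg, granule protease and peroxidase genes of neutrophil progenitors, led the Lztr1 knockout. Elane was at 3.71, 707 and 212 CPM, Mpo at 55.7, 1407 and 262 and Prtn3 at 44.5, 1135 and 315. Without mixed-lineage members the 3 values were 4.33, 37.8 and 70.3 for Elane, 47.7, 135 and 123 for Mpo and 52.0, 86.5 and 177 for Prtn3. Prss34 and Mcpt8, basophil protease genes, led Rit1-M90I at 785 and 530 CPM against 7.42 each in the control, and were at 43.1 and 22.7 without those members. Summed neutrophil progenitor markers were 152, 3669 and 1059 CPM with all members and 160, 319 and 492 without the mixed ones. Car1 and Car2, carbonic anhydrase genes of erythroid progenitors, were at the lower end in the Lztr1 knockout. Car1 was at 475, 31.1 and 262 CPM with all members and at 26.0, 37.8 and 56.7 without the mixed ones. Its log2 ratios then turned from -3.56 to 0.41 and from -0.84 to 0.89. All of these genes are in the lists that marked members as mixed, so their shifts on removal were set in part by that marking. With the 15 members removed, 1595 genes were compared. In the Lztr1 knockout 81 (5.08%) were above and 83 (5.2%) below, and in Rit1-M90I 35 (2.19%) and 56 (3.51%).

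**Figure D5:**
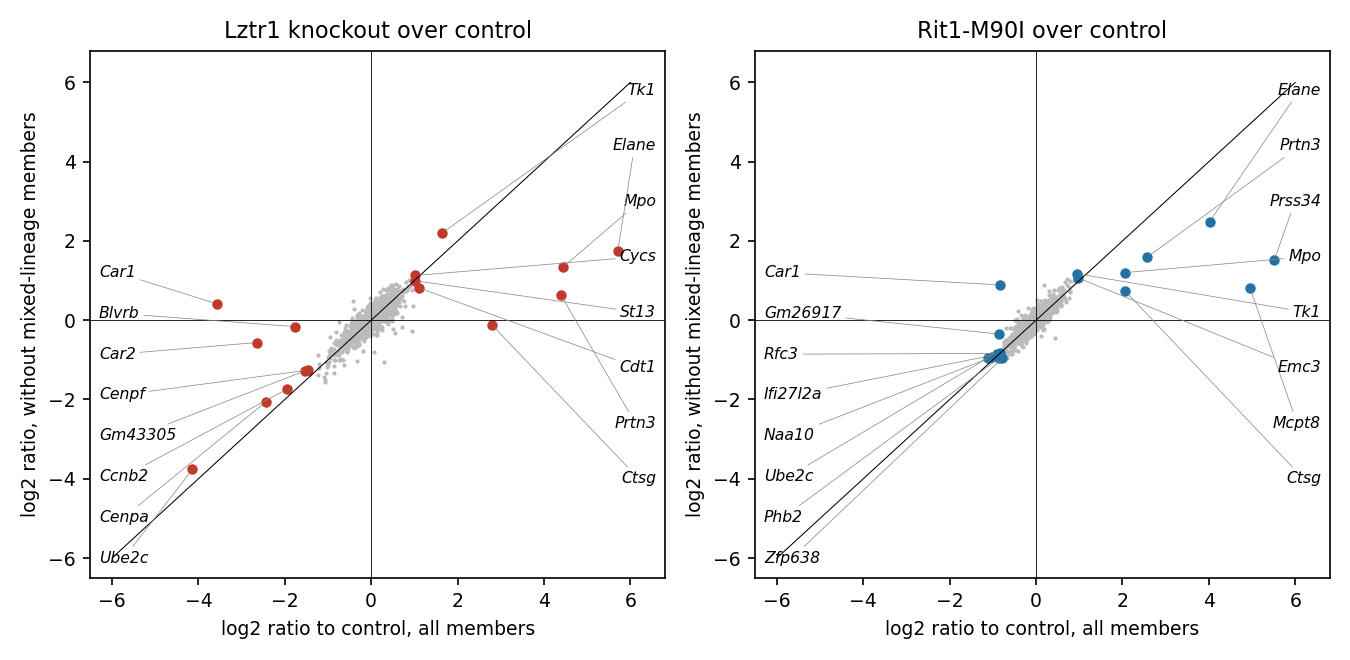
log2 ratio to the control with all Siglech-gated cells (x axis) and without the 15 mixed-lineage members (y axis), for the Lztr1 knockout (left) and Rit1-M90I (right); grey points are the 1561 genes compared, and coloured points are the 8 highest and 8 lowest of each comparison. Genes on the diagonal kept their value, while Elane, Prss34, Mcpt8 and Car1 lie far from it. These genes are in the lists that marked the members removed, so their shift was set in part by that marking.

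Of the calls made with all members, 26 of 44 above and 51 of 85 below in the Lztr1 knockout were also made without the mixed-lineage ones, and 18 of 27 and 31 of 47 in Rit1-M90I. Ifi27l2a, an interferon-stimulated gene, was at 590 CPM (502 to 689), 214 CPM (161 to 278) and 313 CPM (269 to 362). The control was highest, and its interval overlapped neither of the others. The log2 ratios were -1.42 and -0.89, and -1.36 and -0.86 without mixed-lineage members. With Siglech at 3 UMIs they were -1.03 and -0.97. Other cells had the gene highest in the control as well, at 337, 233 and 163 CPM in cells with 1 to 4 Siglech UMIs and at 65.3, 47.4 and 32.4 in the other barcodes. Of 6 interferon-stimulated genes that reached 100 CPM, 2 were past 1.5-fold below the control in the Lztr1 knockout, Ifi27l2a among them, and 1 (Ifi27l2a) in Rit1-M90I. Over all genes the shares below were 5.45% and 3.01%. Without mixed-lineage members the counts were again 2 (Ifi27l2a and Ifitm2) and 1 (Ifi27l2a), where the shares over all genes were 5.2% and 3.51%. In both mutants 0 were above, and the medians were -0.44 and -0.10. Isg15 had 5, 0 and 2 UMIs.

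Other lower genes of the Lztr1 knockout were mitotic. Ube2c, a ubiquitin-conjugating enzyme of the anaphase-promoting complex, was at 509, 19.4 and 231 CPM, with UMIs in 13 of 44, 3 of 30 and 27 of 90 members. Cenpa, the centromeric histone, was at 319, 50.5 and 229 CPM, cyclin B2 (Ccnb2) at 178, 38.9 and 163 and Cenpf at 223, 73.9 and 204. The Lztr1 knockout was lowest for each, and its intervals lay below those of both other libraries. The sizes depended on which cells were taken, since Ube2c moved from -4.14 to -1.32 with Siglech at 3 UMIs and to -0.72 with thinned barcodes, and Cenpa from -2.44 to -0.99 and -0.76. Gm43305, annotated as a processed transcript at chr14:54292443-54297456, was at 312, 101 and 253 CPM with a log2 ratio of -1.53, and -1.37 and -1.19 under the same 2 changes. At the upper end Tk1, thymidine kinase of S phase, was at 48.3, 171 and 103 CPM, the replication licensing gene Cdt1 at 70.5, 163 and 77.0 and cytochrome c (Cycs) at 92.8, 198 and 127. Of 23 cycling genes compared, 1 was past 1.5-fold above the control in the Lztr1 knockout and 7 below, with a median of -0.04. Over all 1561 genes the shares were 2.82% above and 5.45% below. In Rit1-M90I 1 cycling gene was above and 2 below, with a median of -0.28, where the shares over all genes were 1.73% and 3.01%.

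In Rit1-M90I, Ube2c, Naa10, Ifi27l2a, Phb2, Gm26917, Car1, Rfc3 and Zfp638 had the lowest ratios. Naa10, an N-terminal acetyltransferase subunit, was at 160, 77.7 and 73.6 CPM, low in both mutants. Rfc3, a subunit of the replication clamp loader, was at 111, 132 and 58.2 CPM. Bcl2, which protects cells from apoptosis, was at 460, 416 and 274 CPM with a log2 ratio of -0.73 in Rit1-M90I, and -0.54 with Siglech at 3 UMIs. Lair1, an inhibitory collagen receptor of plasmacytoid dendritic cells, was at 81.7, 73.9 and 157 CPM with a log2 ratio of 0.87, and 0.53 with Siglech at 3 UMIs. Emc3, a subunit of the membrane protein insertase of the endoplasmic reticulum, was at 66.8, 101 and 140 CPM.

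Counts for lists of the cell type's own genes are read beside the shares past 1.5-fold over all 1561 genes. Those were 2.82% above and 5.45% below in the Lztr1 knockout, and 1.73% and 3.01% in Rit1-M90I. Of 11 transcription factor genes compared, 0 were above and 1 (Tsc22d1) below in the Lztr1 knockout, with a median of -0.26, and none passed in Rit1-M90I, with a median of -0.10. Of 14 receptor and marker genes, 0 were above and 2 (Atp1b1 and Rnase6) below in the Lztr1 knockout, with a median of -0.37, and 2 (Ly6c2 and Lair1) above and 0 below in Rit1-M90I, with a median of 0.09. Without mixed-lineage members the Lztr1 knockout medians were -0.11 and -0.12 and no gene of either list passed there, and in Rit1-M90I only Lair1 passed. Of 7 sensing genes none passed in either mutant. Of 20 secretory pathway genes 1 (Calr, at 379, 754 and 520 CPM) was above in the Lztr1 knockout and none passed in Rit1-M90I, and without mixed-lineage members Calr was at 412, 530 and 499 CPM and no longer passed. Of the same 20 genes, 2 were then below in the Lztr1 knockout. These were Ssr2, a translocon subunit gene, at 143, 64.9 and 132 CPM, and Sec11c, a signal peptidase subunit gene, at 316, 178 and 275. Among 8 early lymphoid genes Dntt was above and Notch1 below in the Lztr1 knockout, and none passed in Rit1-M90I. Without mixed-lineage members Dntt no longer passed (0.46), Notch1 was at -0.60 and Satb1, a chromatin organiser gene, was below in Rit1-M90I at -0.62. Dntt turned to -0.59 with thinned barcodes.

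The altered genes could be followed only faintly. Lztr1, at chr16:17508688-17526333, had 6, 0 and 10 UMIs (22.3, 0 and 17.1 CPM). The Lztr1 knockout library had none, which allows up to 11.7 CPM, and other kept barcodes of that library held 6.38 CPM against 17.4 and 15.3. The labels do not name the exons that the floxed allele loses, so tags from the gene's end need not report the deletion. Rit1, at chr3:88716838-88731049, had 2, 7 and 12 UMIs (7.42, 27.2 and 20.5 CPM), and its ratios to the control, 3.66 (0.698 to 36.2) and 2.77 (0.616 to 25.4), were too imprecise to show a difference. Of 31 RAS pathway genes 4 reached 100 CPM and none passed 1.5-fold in either mutant with all members. Without mixed-lineage members 1 of them was below in the Lztr1 knockout (5.2% over all genes). Of 18 genes known to respond to MAPK signalling only Ccnd1 reached that level, and it differed by 0.11 and 0.09 on the log2 scale.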

How the data were processed

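Raw UMI counts per gene and barcode were deposited by the authors for 3 libraries of sorted lineage-negative marrow. Per the submitters' processing notes they come from Cell Ranger 6.1.1 with build mm10, and Seurat 4.1.0 is also named. Per the labels' protocols the chemistry was 10x 3' v3. No label names the cell calling settings or annotation release. The files list 32285 genes. Kept barcodes held 66038812, 29404470 and 86036708 UMIs (control, then Lztr1 knockout, then Rit1-M90I).

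The members and gene lists were chosen with earlier results of these data known. UMIs were summed over members per library and scaled to CPM of that sum. Ratios are log2 of (CPM + 10) over (CPM + 10), among genes with a mean of at least 100 CPM over members, with 1.5-fold as the threshold. The pseudocount understates changes of low genes. With 1 library per genotype no test was possible. Intervals are exact Poisson (CPM), exact conditional (ratios of UMIs), Clopper-Pearson (shares) and Katz (ratios of shares), at 95%. Near-identical genes and overlapping transcripts can exchange reads, which affects immunoglobulin, histone and Ly6 genes.

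Doublets were called with scrublet in scanpy 1.11.5 (3.47%, 3.47% and 4.58% of kept barcodes) and removed only in an alternative. Comparison gates were cells with 1 to 4 Siglech UMIs, Siglech-negative cells with at least 3 Dntt UMIs, and Siglech-negative cells with at least 5 H2-Aa UMIs and 1 other dendritic gene. Genes named are those of the rule and the markers, Lztr1 and Rit1, the 8 highest and 8 lowest ratios of each comparison, the 12 leading genes over other barcodes, and members of the lists with the highest levels or most extreme ratios. Some further list genes were named after their values were seen, among them those with few or no UMIs. Xist and Y-linked genes were left out. Some results are not reported here. Gene coordinates are those of GENCODE M21, which uses the same build, and promoter sequences are those of RefSeq. The calculations were tested on simulated counts. Alternatives changed the Siglech limit, depth, doublets, barcode limits, pseudocount, filter, scaling and weighting, and removal of mixed-lineage members was added after seeing the data.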

Additional observations from a re-analysis of the deposited data

How the results depend on the processing

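With 129, 63 and 197 members at 3 Siglech UMIs or 5, 4 and 11 at 10, the shares were 1.71%, 2.60% and 2.01%, or 0.0665%, 0.165% and 0.112%. With thinned barcodes the shares of the control and Rit1-M90I were 0.885% and 1.21%. The ratios of shares stayed above 1 in every alternative run, from 1.38 to 2.48 for the Lztr1 knockout and from 1.17 to 1.69 for Rit1-M90I. Several intervals included equal shares. At 10 Siglech UMIs they were 0.668 to 9.25 and 0.586 to 4.85, and at 3 that of Rit1-M90I was 0.939 to 1.46. With thinned barcodes both intervals included equal shares, and the remaining intervals lay above 1. The counts of genes past 1.5-fold depended on most choices. For the Lztr1 knockout the 44 genes above the control became 14 at 3 Siglech UMIs, 458 at 10, 90 with thinned barcodes, 81 without mixed-lineage members, 24 with a pseudocount of 50, 626 with a filter at 20 CPM, 1375 with no filter and 71 with each member weighted equally. The 85 below became 18, 424, 51, 831 and 1753 at 3 and 10 Siglech UMIs, a pseudocount of 50, a filter at 20 CPM and no filter. For Rit1-M90I the 27 above became 6, 333, 13, 496 and 1407 under those same 5 changes, 41 with median of ratios scaling and 44 with equal weights, and the 47 below became 8, 424, 14, 568 and 1049. The median of ratios scaling moved the median of all genes by less than 0.1. A filter at lower CPM tests genes with a few UMIs each. The other causes were not tested.

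Of 147 named genes in each comparison, 12 values of the Lztr1 knockout and 11 of Rit1-M90I, out of 1617 alternative values each, changed sign from a difference past 1.5-fold. Without mixed-lineage members these were Car1 (0.41) and Ctsg (-0.11) and Prss34 (-0.28) in the Lztr1 knockout and Car1 (0.89) in Rit1-M90I. Lists that hold these genes had marked the members removed. With thinned barcodes the values that changed sign were Car1 (1.56), Car2 (0.026), Blvrb (0.18) and Dntt (-0.59) in the Lztr1 knockout and Car1 (1.37) in Rit1-M90I. At 10 Siglech UMIs they were Blvrb (3.86), Ctsg (-0.68), Rnase6 (0.031) and Notch1 (0.88) in the Lztr1 knockout, and Ube2c (0.94), Car1 (2.13), Blvrb (2.60), Tk1 (-0.16), Rfc3 (0.66), Ly6c2 (-1.90), Cdk1 (1.43) and Bcl2 (0.49) in Rit1-M90I. Prss34 (-0.35) changed sign with stricter barcode limits in the Lztr1 knockout and Mpo (-0.24) at 3 Siglech UMIs in Rit1-M90I. Ifi27l2a stayed below the control in all 11 alternatives of both comparisons. No paired analysis was possible because each genotype has 1 library.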
